A study of Mus musculus with 24 samples.

Results

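Microvessels of the hemisphere opposite the occluded artery were compared between tMCAO- and sham-operated mice 24 h after surgery. This comparison held 6 of the 24 libraries of the study, 3 from tMCAO-operated and 3 from sham-operated animals, and they were taken by their labels as contralateral hemispheres of the 24 h groups. In transient middle cerebral artery occlusion (tMCAO) a filament closed the right middle cerebral artery for 60 min and was then withdrawn, whereas in sham surgery it was retracted at once. All animals were male C57BL/6J mice aged 10 to 12 weeks. Each library held vessels pooled from 3 hemispheres, so that a group stood for 9 animals, and brains had been perfused with PBS and freed of cerebellum, brainstem, olfactory lobes and meninges. An isolate of this kind holds endothelial cells together with attached mural cells, astrocyte endfeet, microglia and fragments of neurons, and fewer cells of a type cannot be told apart from less RNA per cell.

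Brain microvessels form the blood-brain barrier, in which endothelial cells sealed by tight junctions rest on a basement membrane shared with pericytes, while smooth muscle cells cover the arterioles. After a stroke, the vessels of the injured hemisphere induce cytokines, proteases and angiogenic factors. The opposite hemisphere keeps its own blood supply but receives the same circulating hormones, cytokines and blood cells, and it is often used as an internal control.

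The deposited values are normalized counts, that is reads per gene divided by a size factor of the library and rounded. They summed to between 16431659 and 17908309 per library. The 13 endothelial markers, among them Cldn5 and Pecam1, summed to between 547507 and 587464 in the sham and between 532600 and 611766 in the tMCAO libraries, so that the labelled tissue was present in all 6. Library 2 of the tMCAO group stood apart. Among 12023 genes with a mean of at least 50 over the 6 libraries, 65 were more than 2-fold above all other libraries in it, whereas this number was between 0 and 10 in each of the other libraries. Akap12, a scaffold protein of protein kinase A, had 34820 normalized counts there and between 4206 and 6935 in the others, and the matrix protease Adamts9 had 6070 there and between 273 and 853 elsewhere. Both genes were picked on these values. For some results below the value without this library is given as well, and for others only the values in it.

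No gene was regulated between the contralateral hemispheres. With the study's limits (adjusted p under 0.05, a change of more than 1.5-fold and a mean above 5 normalized counts), 0 of 15982 tested genes passed in limma's test with Benjamini-Hochberg adjustment (0%), and the smallest adjusted p was 0.352. An unadjusted p under 0.05 was reached by 192 genes that were higher (1.20% of those tested) and 213 that were lower after tMCAO (1.33%), together 405 where an even spread of p-values would give 799. Without tMCAO library 2 this number was 248, and without tMCAO library 3 it was 625. The SE, p-values and intervals use a spread pooled over all 8 groups, those of 7 days included. The median SD (log2) was 0.25 in the contralateral tMCAO group of 7 days, against 0.16 and 0.20 in the compared sham and tMCAO groups. With only the 6 compared libraries 593 genes had an unadjusted p under 0.05, and with the 12 libraries of 24 h 632. In the ipsilateral hemispheres of the same surgeries, 1603 genes were higher (10.0%) and 1316 lower (8.23%). The difference between the ipsilateral and the contralateral effect passed for 941 genes (5.89%), 741 with a higher and 200 with a lower ipsilateral effect (537 and 255 with median centring). These numbers were 1235 and 755 with the pool of mice as a random block, 1277 and 880 with array weights, and 481 and 79 without sham library 2. Contralateral log2 fold changes were centred at 0.01, and the absolute change had a median of 0.11 against 0.35 on the ipsilateral side. The test's precision was limited: the median half-width of the 95% confidence interval was 0.40 on the log2 scale, and for 8778 genes (54.9%) the whole interval lay within a 1.5-fold change in either direction. For the other genes the interval reached or passed a change of that size with this number of libraries.

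**Figure D1:**
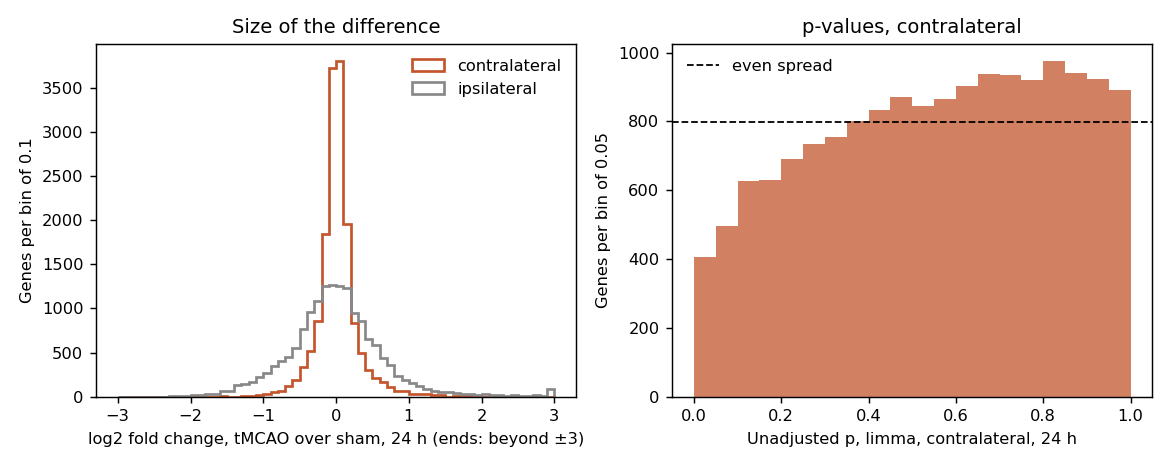
Left, number of genes per bin of log2 fold change (tMCAO over sham, 24 h) for the contralateral and the ipsilateral hemispheres, with 15982 genes each. Right, number of genes per bin of unadjusted p on the contralateral side, with a dashed line where an even spread would lie; the first bin holds 405 genes, below that line.

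Within these limits, genes are described with their values in each library, since single libraries carry the information here. Many were picked by a rule on p, libraries that do not overlap and a mean of at least 50, or as the smallest p of a list. Others, such as Saa3 and Il6, are list members that the rule did not name. The rule passed over scarcer genes with small unadjusted p-values in limma's test, such as Adamts7 (2.1e-04) and Zfp385c (2.3e-04). All log2 fold changes here are descriptions of these 6 libraries that did not pass the adjustment. Across all tested genes, 633 (3.96%) had every tMCAO library above every sham library and 677 (4.24%) had every tMCAO library below. The counts of list members without overlap given below stand beside these shares.

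The smallest p of all belonged to Il11, which encodes interleukin 11, a cytokine of the interleukin 6 family (mm10, chromosome 7, 4772373 to 4782857, minus strand). Its sham libraries held 7, 3 and 6 normalized counts and its tMCAO libraries 71, 60 and 43. The groups were far apart, with a log2 fold change of 3.25 ± 0.59 (SE, n = 3 per group; limma, unadjusted p = 2.2e-05, adjusted p = 0.352). On the ipsilateral side of the same mice, the tMCAO libraries held between 1977 and 3280 counts and the sham libraries between 7 and 30. The ipsilateral effect exceeded the contralateral one by 4.41 on the log2 scale (limma, adjusted p = 0.00336). At 7 days, contralateral values of tMCAO and sham mice overlapped, with 5 to 7 counts in the sham and 6 to 11 in the tMCAO libraries. When libraries were weighted by their quality in limma, Il11 was the only gene called in this comparison (log2 fold change 3.40, adjusted p = 0.00604).

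Mmp3, the matrix metalloproteinase stromelysin 1 (chromosome 9, 7445822 to 7455975, plus strand), had 4, 6 and 3 counts in the sham and 74, 69 and 14 in the tMCAO libraries. The groups did not overlap, but library 3 of tMCAO lay well below the other two (log2 fold change 3.05 ± 1.01, SE, n = 3; limma, adjusted p = 1). Saa3, an acute-phase apolipoprotein, had 10, 13 and 11 counts after sham surgery and 57, 53 and 26 after tMCAO. Interleukin 6 itself had 15, 1 and 5 counts in the sham and 17, 34 and 16 in the tMCAO libraries, a log2 fold change of 1.93 for Il6 with groups that only just separated. All of these transcripts were scarce on this side, at no more than 74 counts in any of the 6 libraries. Their ipsilateral tMCAO libraries held between 1329 and 1996 counts of Mmp3, between 648 and 847 of Saa3 and between 468 and 1070 of Il6.

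Apln encodes apelin, a peptide ligand made by sprouting endothelial cells (chromosome X, 48025146 to 48034853, minus strand). Its sham libraries held 99, 79 and 91 counts and its tMCAO libraries 416, 285 and 172. Even the lowest tMCAO library was above all sham libraries of this side (log2 fold change 1.60 ± 0.42, SE, n = 3; limma, adjusted p = 1). Ipsilaterally the values were between 157 and 188 after sham surgery and between 1958 and 6818 after tMCAO, and the ipsilateral effect was larger by 2.72 (limma, adjusted p = 0.00892). Library 1 was the highest and library 3 the lowest of the tMCAO libraries on both sides. Its receptor gene Aplnr had a contralateral log2 fold change of 0.08.

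**Figure D2:**
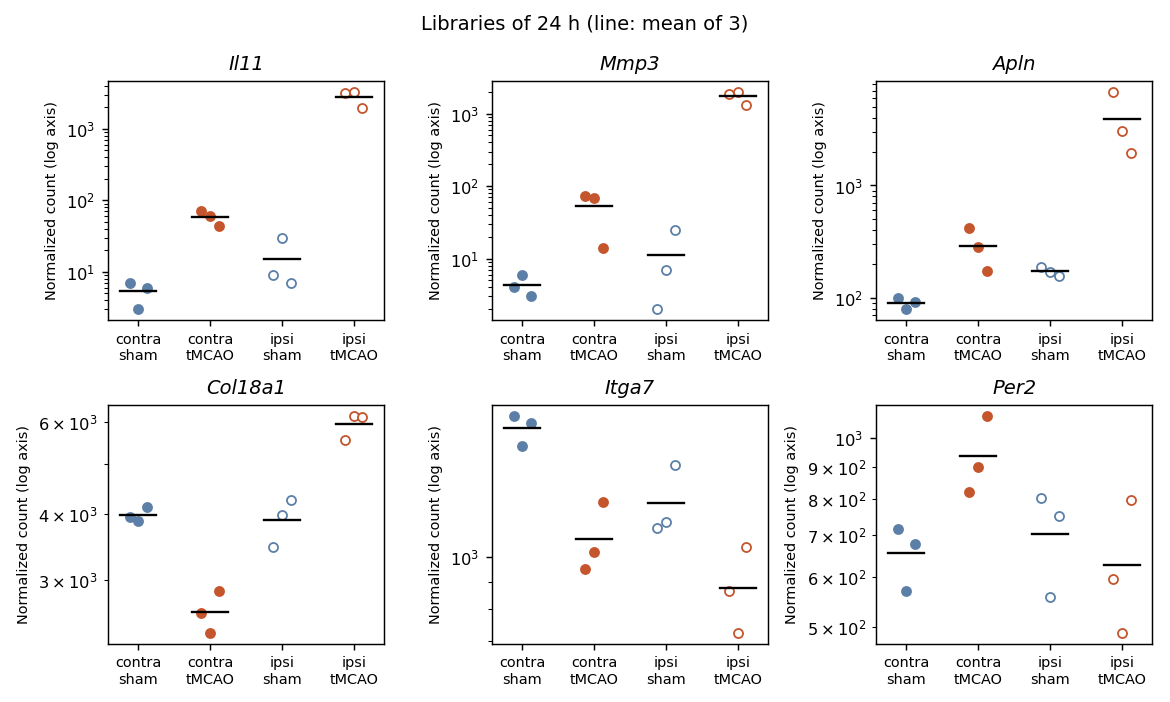
Normalized counts (log axis, scaled for each gene) of 6 genes in the 12 libraries of 24 h; filled points are contralateral, open points ipsilateral, and lines are means of 3 libraries. Il11, Mmp3 and Apln were higher after tMCAO on both sides, Col18a1 was lower contralaterally and higher ipsilaterally, Itga7 was lower on both sides, and Per2 was higher contralaterally with overlapping groups ipsilaterally.

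Upstream sequence is shown for Il11 and Mmp3, the pair with the largest fold changes among the genes described so far, as RefSeq gives it for GRCm38.p6. Each run is 250 bases on the gene's strand and ends at the base before the transcription start. Capitals mark TGANTCA, the letters bound by AP-1 factors such as Fos and Jun, searched on both strands. RefSeq gives Il11 a pair of start sites, and the letters were found before the inner one (chr7:4778142-4778391, 98 to 92 bases before the start) and not before the outer one. In Mmp3 (chr9:7445572-7445821) they lay 46 to 40 bases before the start.
Il11: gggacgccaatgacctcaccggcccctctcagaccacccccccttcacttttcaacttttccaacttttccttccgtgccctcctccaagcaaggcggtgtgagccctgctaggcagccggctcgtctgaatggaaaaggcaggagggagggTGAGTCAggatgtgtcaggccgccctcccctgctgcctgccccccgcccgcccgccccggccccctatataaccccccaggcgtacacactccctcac
Mmp3: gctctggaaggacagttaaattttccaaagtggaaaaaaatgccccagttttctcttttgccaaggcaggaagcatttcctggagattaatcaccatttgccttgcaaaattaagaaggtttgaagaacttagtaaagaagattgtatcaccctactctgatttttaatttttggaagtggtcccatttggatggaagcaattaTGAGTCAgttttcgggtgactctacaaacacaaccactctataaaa
Of 11591 tested genes, each counted by the window nearest its annotated gene start, 496 (4.28%) held these letters. For Il11 that was the outer window, so its match before the inner start is not among the 496. A match of letters describes the window and does not show that a factor was bound there.

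Il11, Mmp3, Saa3, Il6 and Apln belonged to the genes with the largest ipsilateral increases. The 50 genes with the largest regulated ipsilateral increases (at least 50 counts in the ipsilateral tMCAO mean, a set formed after the data were seen) had ipsilateral log2 fold changes between 3.20 and 7.66. Contralaterally 43 of the 50 were higher after tMCAO and 6 lower, beside 51.4% higher among all tested genes. Libraries did not overlap for 16 of the 50, all of them higher, beside 3.96% of all tested genes that were higher without overlap. Their median contralateral log2 fold change was 1.06, beside 0.01 for all genes. In single libraries, the median distance of these genes from the sham mean was 1.12, 1.66 and 0.56 in tMCAO libraries 1, 2 and 3 and between -0.36 and 0.24 in the sham libraries. Without tMCAO library 2 the median log2 fold change was 0.71 with 40 genes higher, and it was between 0.71 and 1.33 when any 1 library was left out. The amounts were small: the contralateral difference in mean counts was 4.06% of the ipsilateral difference in the median gene, with quartiles of 1.90% and 6.46%, and 34 of the 50 genes stayed under 50 counts in the contralateral tMCAO mean. For Il11 this share was 1.89%, for Mmp3 2.78%, for Hmox1, which encodes haem oxygenase 1, 3.74%, and for Apln 5.33%. The 6 lower genes were Trem1 (-0.77), Selp (-0.66), Cxcl3 (-0.47), Ackr1 (-0.40), Avpr1a (-0.39) and Il1b (-0.02). Ipsi- and contralateral libraries come from the same mice, so these values stand side by side and are not independent. Of the 50 genes with the largest ipsilateral decreases, 34 were lower and 16 higher contralaterally, with a median of -0.22.

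**Figure D3:**
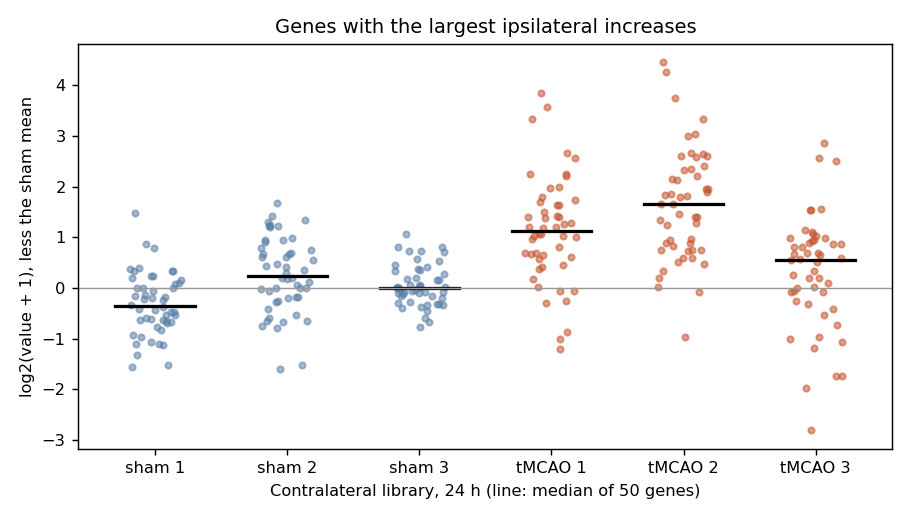
The 50 genes with the largest ipsilateral increases in each contralateral library of 24 h; the vertical axis is log2(normalized count + 1) less the gene's sham mean, points are genes and lines are medians. The medians of the tMCAO libraries lie between 0.56 and 1.66, above those of the sham libraries.

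Most neutrophil and monocyte markers had higher means in the tMCAO libraries, whereas of 8 T and B cell markers 3 were higher and 5 lower with a median of -0.11. Cxcr2, a chemokine receptor of neutrophils, belongs both to the 50 genes and to the neutrophil and monocyte panel. Of 12 neutrophil and monocyte markers, 11 were higher contralaterally after tMCAO, with a median log2 fold change of 1.13, and 3 did not overlap. S100a8, an alarmin of neutrophils, had 23, 180 and 72 counts in the sham and 294, 229 and 132 in the tMCAO libraries, which overlap in part. The neutrophil protein Retnlg had 8, 57 and 48 against 104, 120 and 66, with no overlap. Library 1 of the sham group was the lowest for both genes. The summed markers ranged from 269 to 834 counts after sham surgery and from 777 to 1350 after tMCAO, so the groups overlapped, and the mean log2 value of the panel was higher by 1.05 (2-sided exact permutation test over 20 splits, n = 3 per group, p = 0.2, where 0.1 is the smallest p possible; Benjamini-Hochberg adjusted p = 0.75 over 15 panels). Without sham library 1 this difference was 0.59. The part of neutrophils and monocytes in the values of the 50 genes was not tested.

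Transcripts of red blood cells were higher in the tMCAO libraries as well. All 6 erythrocyte markers had a positive log2 fold change, 5 did not overlap, and Hba-a1 and Hba-a2 had unadjusted p-values of 0.0369 and 0.0419 in limma's test. Hbb-bs, a beta globin, had 247, 2734 and 3461 counts in the sham and 6219, 4000 and 8219 in the tMCAO libraries. Alas2, the first enzyme of haem synthesis in red cells, had 20, 195 and 249 against 434, 302 and 602. The low values of sham library 1 were present for every globin, and the ipsilateral sham library of the same number was low too, with 644 counts of Hbb-bs against 7279 and 6077. Summed over the panel, the sham libraries held between 422 and 6123 counts and the tMCAO libraries between 7234 and 14168, a difference of 1.99 in the mean log2 value (exact permutation test, n = 3 per group, p = 0.1, the smallest possible; adjusted p = 0.75). Leaving out sham library 1 took it to 0.97. At 7 days, with other animals, the direction of the means was opposite: Hbb-bs had 8924, 29551 and 32282 counts in the contralateral sham and 16416, 9784 and 2425 in the tMCAO libraries. The globin genes are near-identical copies, and since reads that matched several genes were discarded, their levels are uncertain. Platelet markers were higher by 1.04 in the panel mean and by 0.38 without tMCAO library 2, in which Itga2b, the platelet integrin subunit, had 158 counts against 26 to 55 in the others.

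Vascular smooth muscle genes had lower means after tMCAO. All 8 markers (Acta2, Myh11, Tagln, Cnn1, Des, Mylk, Pln and Lmod1) had a negative log2 fold change, between -0.64 and -0.32. In 5 of them the libraries did not overlap, beside 4.24% of all tested genes that were lower without overlap. None of the 8 had an unadjusted p under 0.05. Smooth muscle actin Acta2 had 28771, 24099 and 25850 counts in the sham and 16330, 13574 and 21497 in the tMCAO libraries. Pln, the phospholamban that restrains the calcium pump, had 2314, 1808 and 1693 against 1127, 1062 and 1648, and all tMCAO values were below the sham values. The panel mean differed by -0.47 (exact permutation test, n = 3 per group, p = 0.1, the smallest possible; adjusted p = 0.75), and by -0.35 to -0.61 when 1 library was left out. The 2 sham groups of this time point also differed: ipsilateral sham libraries held between 18893 and 19684 counts of Acta2, below all contralateral sham libraries and within the range of the contralateral tMCAO libraries. For Pln the ipsilateral sham values were 1171, 1268 and 1226. At 7 days, contralateral Acta2 ranged from 13735 to 33892 after sham surgery and from 19215 to 34664 after tMCAO, with overlapping groups. Of 12 pericyte markers, 10 were lower with a median of -0.22. The pericyte panel mean was lowest in tMCAO library 2 (11.31), against 11.75 and 11.83 in the other tMCAO libraries and 11.67 to 11.96 after sham surgery. Whether the amount of arteriole in the isolates differed was not tested.

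**Figure D4:**
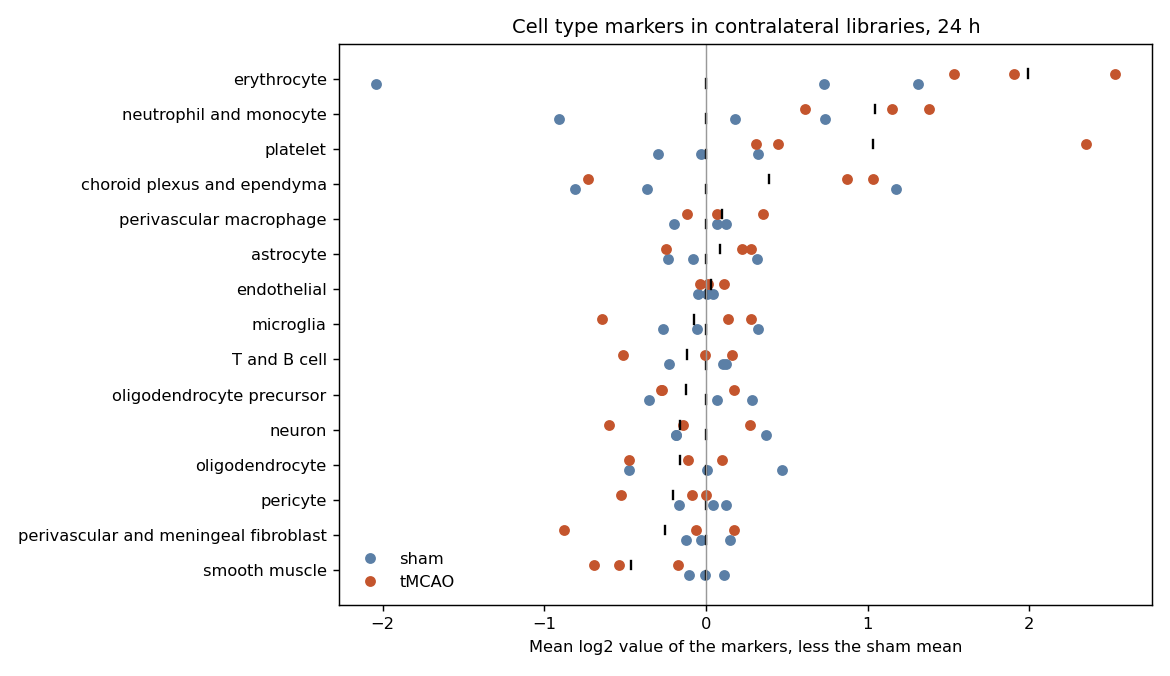
Mean log2 value of 15 panels of cell type markers in the 6 contralateral libraries of 24 h, less the mean of the sham group; points are libraries and short bars are group means (n = 3). Only the erythrocyte and smooth muscle panels have groups that do not overlap, and the endothelial panel differed by 0.03.

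Col18a1 had the smallest p of the 15 lower genes. It encodes the collagen XVIII chain, a basement membrane component and the source of endostatin (chromosome 10, 77052178 to 77166548, minus strand). It had 3951, 3886 and 4134 counts in the sham and 2590, 2377 and 2855 in the tMCAO libraries. The gap between the groups was wider than the range within either (log2 fold change -0.62 ± 0.14, SE, n = 3; limma, unadjusted p = 3.2e-04, adjusted p = 1). Ipsilaterally it went the other way, with 3460 to 4268 counts after sham surgery and 5548 to 6171 after tMCAO, and the effects of the 2 sides differed by 1.23 (limma, adjusted p = 0.00112). At 7 days the contralateral values were 3015 to 4125 in the sham and 2224 to 3245 in the tMCAO libraries, with overlap.

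Itga7, the alpha 7 integrin subunit by which muscle cells bind laminin (chromosome 10, 128933818 to 128958282, plus strand), had 1828, 1609 and 1770 counts in the sham and 952, 1021 and 1263 in the tMCAO libraries. The log2 fold change was -0.69 ± 0.20 (SE, n = 3; limma, adjusted p = 1). As with Acta2, the ipsilateral sham libraries (1133 to 1483 counts of Itga7) were below all contralateral sham libraries. They overlapped the contralateral tMCAO libraries (952 to 1263). The ipsilateral tMCAO libraries held between 724 and 1043 counts of Itga7, a log2 fold change of -0.52 (limma, adjusted p = 0.0479), and the difference between the sides did not pass (adjusted p = 0.745). Col28a1, a further collagen, was lower at -0.93, with 96, 94 and 113 against 62, 34 and 68 counts. Within the list of 21 basement membrane and matrix genes, 17 were lower and 4 higher with a median of -0.10, and 3 were lower without overlap (Col18a1, the laminin chain Lamb2 at -0.23 and the proteoglycan Agrn at -0.21). The main network collagens Col4a1 (-0.06) and Col4a2 (-0.06) were near 0, and ipsilaterally their log2 fold changes were 1.02 and 0.996. Sparc, a matrix glycoprotein, had the smallest p among the higher genes of the list, with a log2 fold change of 0.20.

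Slc20a2, a sodium-dependent phosphate transporter (chromosome 8, 22476788 to 22569612, plus strand), had values with little spread: 888, 914 and 894 counts in the sham and 649, 623 and 664 in the tMCAO libraries. The difference was -0.48 ± 0.12 (SE, n = 3; limma, unadjusted p = 6.2e-04, adjusted p = 1), and the ipsilateral one was -0.40. At 7 days the contralateral log2 fold change of Slc20a2 was 0.22. Other lower genes of the rule were Inpp5a (-0.33) and Itpk1 (-0.45), both enzymes of inositol phosphate turnover, Ppp1r3c (-0.55), which directs a phosphatase to glycogen, and Slc27a3 (-0.45) of the fatty acid transport protein family. Pi16 (-0.52), Foxs1 (-0.64), a forkhead factor, Tppp3 (-0.68), Lmo1 (-0.54), Camkmt (-0.54), Asb7 (-0.26) and Dhx58os (-0.80) completed the 15. Dhx58os lies antisense to another gene, and whether the counting used the strand is not given in the sources used here, so its reads cannot be told apart from those of its partner.

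Among the 15 genes that the rule named as higher, Tmsb10, an actin-monomer binding protein, had the smallest p. It had 1707, 1984 and 1834 counts in the sham and 2618, 2979 and 2227 in the tMCAO libraries (log2 fold change 0.49 ± 0.13, SE, n = 3; limma, adjusted p = 1). Its ipsilateral log2 fold change was 1.08. Il15, a cytokine that sustains natural killer and memory T cells, had 110, 134 and 132 against 162, 188 and 186 counts. It was higher contralaterally (0.51) and not ipsilaterally (-0.14). The difference between the sides did not pass in the main fit, which does not pair the hemispheres (limma, adjusted p = 0.0697). Thyn1 was higher by 0.29 and ipsilaterally by 1.24, a difference that passed (0.95, limma, adjusted p = 0.00166). The others were the RNA-binding La protein Ssb (0.17), the polyadenylation factor Cstf2 (0.29), the tRNA methyltransferase Trmo (0.50), the snoRNA host gene Snhg12 (0.51), Cdc42ep2 (0.54), an effector of the GTPase Cdc42, the adaptor Grap (0.28), Tbc1d25 (0.27), Pbdc1 (0.32), the acetylcholine receptor subunit Chrnb1 (0.28) and Rab10os (0.40). Rab10os is also an antisense gene to which the same limit of strand applies. Apln and Per2 belong to the same 15.

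Among the 20 lists other than cell type markers, the clock genes had the most members that were higher without overlap. They numbered 4 of 19, beside 3.96% of all tested genes, and the lists differ in size. The circadian clock runs on a loop in which BMAL1 (the product of Arntl) and CLOCK bind E-boxes of the Per and Cry genes, whose products then inhibit them. Of 19 clock genes 11 were higher and 8 lower with a median of 0.06, and Per2, Cry1, Nr1d2 and Ciart were higher without overlap. The groups only just separated for Cry1, with 653, 517 and 634 counts in the sham and 665, 742 and 747 in the tMCAO libraries. The same held for Nr1d2, with 2842, 2343 and 2383 against 2856, 3178 and 3115. Their unadjusted p-values in limma's test were 0.314 (Cry1) and 0.116 (Nr1d2). Per2 had 717, 571 and 678 counts in the sham and 819, 899 and 1085 in the tMCAO libraries (log2 fold change 0.51 ± 0.20, SE, n = 3; limma, unadjusted p = 0.0204, adjusted p = 1). Ciart, which codes for a repressor of BMAL1 and CLOCK, had 319, 224 and 387 against 500, 421 and 622. On the other arm, Arntl had 468, 472 and 463 counts in the sham and 294, 569 and 159 in the tMCAO libraries, a wide spread in which library 2 was above all sham libraries. Npas2 was lower at -0.56 with overlap. Ipsilaterally the log2 fold change of Per2 was -0.18. At 7 days contralateral Per2 had 174, 170 and 269 counts in the sham and 639, 659 and 648 in the tMCAO libraries, and Ciart 63, 56 and 78 against 123, 259 and 288. Both were lower in the sham libraries of 7 days than in those of 24 h. The contralateral log2 fold change of Per2 at 7 days was 1.69 and passed (limma, adjusted p = 8.76e-04). The change of the Per2 effect from 24 h to 7 days was 1.19 and did not pass (limma, adjusted p = 0.668). The hour of the day at which tissue was taken is not given in the sources used here.

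The sequences before Ciart and Cry1 are shown since both hold the E-box, the letters that BMAL1 and CLOCK bind, in the same layout as above and with CACGTG in capitals. Ciart (chr3:95882229-95882478) holds 3 of them, and Cry1 (chr10:85185055-85185304) holds 1.
Ciart: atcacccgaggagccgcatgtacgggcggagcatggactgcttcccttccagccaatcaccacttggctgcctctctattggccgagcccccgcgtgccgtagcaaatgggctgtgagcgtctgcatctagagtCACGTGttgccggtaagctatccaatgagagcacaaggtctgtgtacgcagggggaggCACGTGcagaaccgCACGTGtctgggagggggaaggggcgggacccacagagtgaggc
Cry1: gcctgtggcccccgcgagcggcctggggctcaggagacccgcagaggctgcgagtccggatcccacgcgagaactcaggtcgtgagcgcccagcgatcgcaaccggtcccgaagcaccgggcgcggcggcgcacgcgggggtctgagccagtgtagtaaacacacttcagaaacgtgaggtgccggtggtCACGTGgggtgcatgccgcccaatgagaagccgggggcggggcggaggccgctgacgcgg
CACGTG reads the same on both strands. It was found in the windows of 5 of 17 clock genes with a window (Bhlhe41, Ciart, Cry1, Per1 and Tef) and in 940 of 11591 windows overall (8.11%). Nr1d2 had no match in its window, and for Per2 no window was used here.

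Glucocorticoid-responsive genes varied widely between the libraries. They are induced by corticosterone, the stress hormone of mice, through the glucocorticoid receptor. Of 22 genes 19 were higher contralaterally and 3 lower (Pdk4, Plin4 and the receptor gene Nr3c1), with a median of 0.19, but none had libraries without overlap and none had an unadjusted p under 0.05. Fkbp5, a co-chaperone of the receptor, had 2863, 1601 and 5407 counts in the sham and 2728, 5467 and 2890 in the tMCAO libraries. The spread between sham libraries was larger than the difference between the groups. Il1r2, the decoy receptor of interleukin 1, had the smallest p among those higher (1.26), with 4, 24 and 23 against 37, 51 and 20 counts, and Plin4 among those lower (-0.37). At 7 days, in other mice, the median of the list was 0.80.

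Barrier genes had medians near 0 on this side. Of 22 transporters of the blood-brain barrier, 14 were higher and 8 lower with a median of 0.03, a range from -0.40 to 0.19 and 0 of 22 with an unadjusted p under 0.05, whereas ipsilaterally the median was -0.85 and 13 were regulated, all lower. The intervals of 9 of the 22 (40.9%) lay within a 1.5-fold change, beside 54.9% of all genes. The glucose transporter Slc2a1 had a contralateral log2 fold change of 0.08 (95% confidence interval -0.64 to 0.79). For the efflux pump Abcb1a it was -0.03 (-0.36 to 0.29) and for Mfsd2a, a lipid transporter that limits transcytosis, 0.03 (-0.40 to 0.46). The thiamine transporter Slc19a3 was the only one of the 22 without overlap (-0.19), beside 4.24% of all tested genes that were lower without overlap. It had 3069, 3227 and 3333 counts in the sham and 3028, 2430 and 3019 in the tMCAO libraries, and ipsilaterally it was at -1.59. Slc7a5 (0.19) and Slc6a6 (-0.40) had the smallest p in each direction. Of 16 junction genes 12 were higher and 4 lower with a median of 0.09, and the intervals of 11 lay within a 1.5-fold change. Claudin 5 was lower without overlap: Cldn5 had 48555, 57920 and 49191 counts in the sham and 45896, 47961 and 43453 in the tMCAO libraries (log2 fold change -0.18, 95% confidence interval -0.52 to 0.16). Occludin (Ocln) was at -0.04 (-0.29 to 0.21), while Cldn12 (0.20) and Jam3 (-0.33) had the smallest p of the list. Without tMCAO library 2 the median of the junction genes was -0.07.

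**Figure D5:**
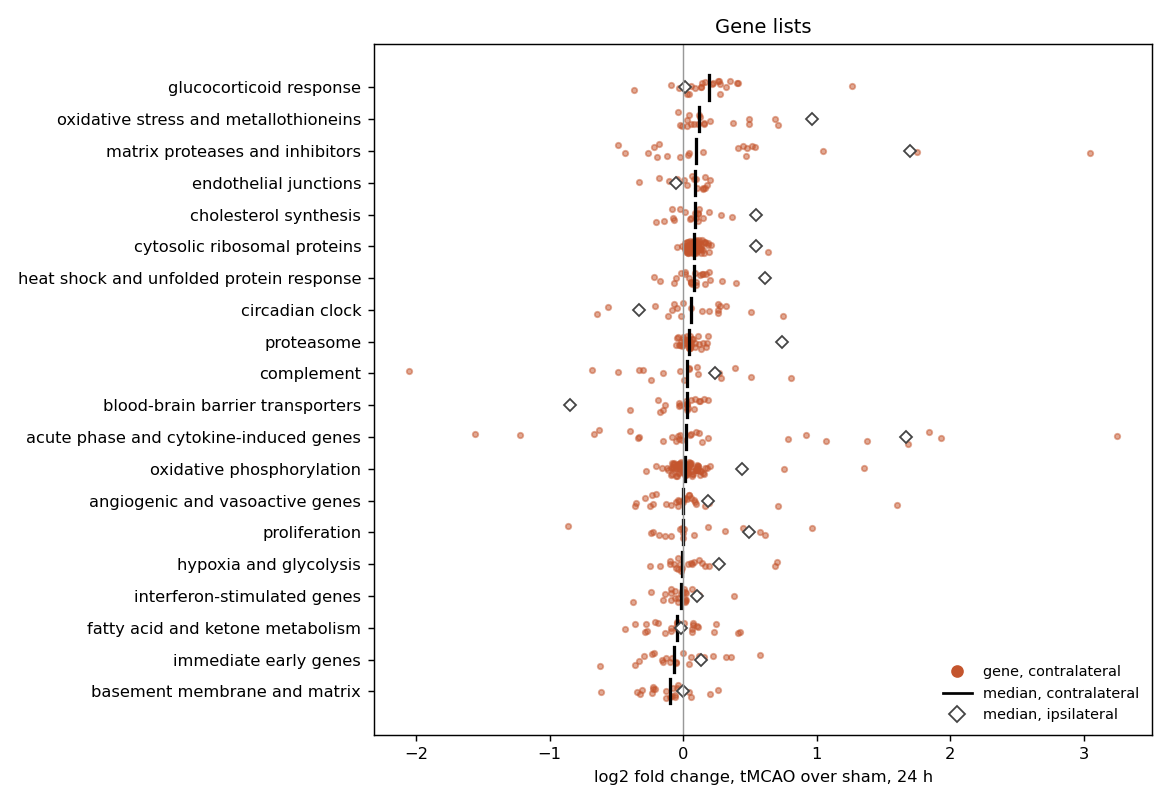
Contralateral log2 fold changes (tMCAO over sham, 24 h) of the genes of 20 lists (points) with their medians (bars), beside the ipsilateral medians (diamonds). Contralateral medians lie between -0.10 and 0.19, and ipsilateral ones between -0.85 and 1.70.

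Inflammatory lists held a few scarce genes that were higher among many that were not. Of 28 acute-phase and cytokine-induced genes 14 were higher and 14 lower with a median of 0.02, beside an ipsilateral median of 1.67 with 12 regulated. Apart from Il11, Saa3 and Il6, no member was higher without overlap. Vcam1, the endothelial receptor for leukocytes, had 9834, 10247 and 8364 counts in the sham and 6574, 7237 and 8833 in the tMCAO libraries (-0.33, limma, unadjusted p = 0.0435), and Icam1 was at -0.05. Several members were high in tMCAO library 2 alone: Lcn2 had 13164 counts there against 2690 to 6688 in the others, and Ccl2 403 against 28 to 98. Of 20 matrix proteases and inhibitors 12 were higher with a median of 0.10, Mmp9 was at 0.48 and its inhibitor Timp1 at 0.41, and Timp2 (-0.49) had the smallest p among those lower. Complement genes had a median of 0.03, with Cfp at 0.39 and Cfi at -2.05, the last with 18 counts or fewer in every library. Among 24 interferon-stimulated genes 10 were higher and 14 lower (-0.01), with Ifi27l2a (0.38) and Irf7 (-0.24) as those with the smallest p, and 19 of the 24 intervals lay within a 1.5-fold change.

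Stress and metabolic lists had medians near 0. Of 19 oxidative stress genes 16 were higher, with a median of 0.12 beside 0.97 ipsilaterally. Hmox1 had 265, 374 and 287 counts in the sham and 534, 510 and 438 in the tMCAO libraries, and Osgin1 162, 183 and 165 against 234, 439 and 209, both without overlap. The metallothioneins Mt1 (0.49) and Mt2 (0.50) rested on library 2, which held 10638 and 12241 counts against at most 4127 elsewhere. Gpx1 (-0.04) had the smallest p of those lower. Of 24 heat shock and unfolded protein genes 19 were higher (0.08), with Trib3, a target of the integrated stress response, at 319, 273 and 324 against 478, 389 and 347 counts and Hspa1b at -0.22. Among 21 genes of hypoxia and glycolysis 10 were higher and 11 lower with a median of -0.01, and Hmox1 and the glycolytic enzyme gene Pgam1 (-0.17) had the smallest p in each direction.

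Genes of protein synthesis and degradation differed by small amounts. Of 78 cytosolic ribosomal protein genes, 76 were higher with a median of 0.08, none without overlap and none with an unadjusted p under 0.05, beside an ipsilateral median of 0.54 with 34 regulated. For 76 of the 78 the interval lay within a 1.5-fold change, with Rpl17 (log2 fold change 0.19) and Rps10 (-0.05) as the members with the smallest p. Of 38 proteasome subunits 29 were higher with a median of 0.05, beside 0.74 ipsilaterally with 33 regulated. Psmb2 had 1345, 1340 and 1422 against 1622, 1520 and 1527 counts (0.18), and for Psmd2 the value was -0.05. The difference between the sides passed for 28 of the 38. Oxidative phosphorylation genes (81, median 0.02) held Atp5sl at 0.20 and Cox4i2 at -0.28.

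Of the remaining lists, 19 genes of cholesterol synthesis had a median of 0.09 (Msmo1 0.15, Fdps -0.20), 25 genes of fatty acid and ketone metabolism -0.05 (Ppargc1a 0.43, Oxct1 -0.28), 22 immediate early genes -0.07 (Npas4 0.57, Klf4 -0.30) and 18 proliferation genes 0.00. Plk1, a mitotic kinase, had 5, 7 and 5 counts in the sham and 11, 14 and 11 in the tMCAO libraries, and Aurkb had 3 or fewer in all 6. Of 27 angiogenic and vasoactive genes 13 were higher and 14 lower. Apart from Apln, 3 of them were lower without overlap: Hey1, an effector of Notch (-0.36), Edn1, the constrictor peptide endothelin 1 (-0.35), and Ace, the angiotensin-converting enzyme (-0.25). Edn1 had 6250, 5831 and 6604 counts in the sham and 4217, 5705 and 4805 in the tMCAO libraries. For Ace the ipsilateral log2 fold change was 0.54, and the sides differed by 0.79 (limma, adjusted p = 0.0207).

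Contralateral differences at 24 h and at 7 days were set side by side, with different animals at each time. Of the 405 genes with an unadjusted p under 0.05 at 24 h, 219 (54.1%) had the same sign at 7 days, beside 53.3% of all tested genes. In both comparisons 44 genes had an unadjusted p under 0.05 with the same sign and 17 with opposite signs, beside 964 and 675 of all 15982 tested genes with an unadjusted p under 0.05 at 7 days. The change of the contralateral effect between the time points passed for 0 genes in limma's test, with 773 at an unadjusted p under 0.05 (4.84%). Of the markers of other cells, astrocyte (0.09), neuron (-0.16), oligodendrocyte (-0.16), oligodendrocyte precursor (-0.13), microglia (-0.08), perivascular macrophage (0.10), fibroblast (-0.26), T and B cell (-0.12) and choroid plexus panels (0.39) differed by these amounts in the mean log2 value at 24 h, all with groups that overlapped. In tMCAO library 2 the fibroblast (10.59), microglia (7.43) and T and B cell (3.14) means were the lowest of all libraries compared. The other tMCAO libraries, at 11.40 and 11.64 for fibroblasts, lay within or above the sham range of 11.34 to 11.62. For choroid plexus, library 2 was at 5.54, against 7.14 and 7.30 in the other tMCAO libraries and 5.46, 7.44 and 5.90 in the sham libraries. The fibroblast, microglia, T and B cell and choroid plexus differences therefore depend on library 2. For neurons, tMCAO library 3 had the lowest mean instead (8.22).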

How the data were processed

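RNA was sequenced from isolated microvessels of the 24 libraries. Per the labels, the authors prepared mRNA libraries with a stranded kit, and the submitters' processing notes name FastQC, STAR 2.5.2b, featureCounts 1.5.1 and DESeq2 1.6.2 with the genome mm10. The authors' paper gives other versions of STAR and DESeq2. The deposited values are a score: for each of 17270 genes the authors scaled the counts to the size of the library with DESeq2 and kept whole numbers, so that a count model was not used. Read totals before this scaling were recovered clearly from the gaps of low values in only 2 of the 6 libraries compared here, and depth is otherwise unknown.

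All 8 groups were fitted with limma 3.58.1 (R 4.3.3) on log2(value + 1), with a trend in the prior variance, for genes with a mean above 5 normalized counts. Contrasts gave the contralateral and ipsilateral effects of tMCAO at 24 h, their difference, and the contralateral effect at 7 days, with Benjamini-Hochberg adjustment over all 15982 genes. Fold changes are on the log2(value + 1) scale, which understates those of scarce genes. Genes were called regulated at an adjusted p under 0.05 and a change above 1.5-fold. Named genes were the 15 with the smallest p in each direction among those with a mean of at least 50 and no overlap of the 6 libraries, leaving out unnamed models and pseudogenes, and for each list the member with the smallest p in each direction. Marker panels were compared as means of log2 values with an exact permutation test. The members and lists were chosen with earlier results of these data known. P-values measure the spread between pools of hemispheres, not between single mice. The main fit took ipsi- and contralateral libraries of the same mice as independent, also in each test of the difference between the sides. With the pool of mice as a random block, the correlation within a pool was 0.34. The alternatives were another pseudocount, no filter, a minimum mean of 20, median centring, array weights, fits on 6 or 12 libraries, blocks for the number or the pool, and leaving out each library. The scripts were tested on simulated data. Promoter windows came from RefSeq and covered 6 of the 8 smooth muscle markers. Of those 6, 0 held a CArG box in its strict form (CC, then 6 bases of A or T, then GG), beside 1.18% of all windows. Boxes with other letters, or outside the 250 bases, were not searched, so the 0 does not show that these genes lack one. Libraries that the authors removed as outliers were not analysed here, and 1 gene is not reported here.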

Additional observations from a re-analysis of the deposited data

Results flagged for a closer look

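Of the genes that the rule named, the members it took from the lists included, 13 had an effect of tMCAO at 24 h that differed between the hemispheres in limma's test of the difference itself at an adjusted p under 0.05, with no limit on its size (ipsilateral minus contralateral, log2). Col18a1 differed by 1.23 (adjusted p = 0.00112), with a log2 fold change of -0.62 contralaterally and 0.61 ipsilaterally and no overlap of tMCAO and sham libraries on either side. Il11 differed by 4.41 (adjusted p = 0.00336), Hmox1 by 3.04 (adjusted p = 0.00109) and Apln by 2.72 (adjusted p = 0.00892), all higher after tMCAO on both sides. The difference was 0.95 for Thyn1 (adjusted p = 0.00166), 0.54 for Pbdc1 (adjusted p = 0.0374), 0.81 for the proteasome subunit Psmb2 (adjusted p = 0.00206), 0.74 for Psmd2 (adjusted p = 0.000854) and 1.77 for Ifi27l2a (adjusted p = 0.0136). It was -1.19 for the amino acid transporter Slc7a5 (adjusted p = 0.0327) and -1.46 for Ppargc1a (adjusted p = 0.0345). For the scarce genes Cfi (3.51, adjusted p = 0.0236) and Aurkb (2.41, adjusted p = 0.0285), few counts stand behind the value. With 3 libraries in a group, no library was tested as an outlier.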

How the results depend on the processing

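No gene was regulated contralaterally at 24 h in the main fit or under any alternative except array weights, with which 1 gene was higher (Il11). The numbers of genes at an unadjusted p under 0.05 (192 higher, 213 lower) moved with the fit: with array weights, which also changed the fold changes, they were 463 and 487, with the 12 libraries of 24 h 313 were higher, with the 6 compared libraries 330 were lower, and with a minimum mean of 20, under which fewer genes were tested, 115 were higher. Leaving out 1 library gave between 111 and 256 higher and between 137 and 369 lower, the lowest without tMCAO library 2 and the highest without tMCAO library 3. Genes without overlap then numbered between 1212 and 1599 higher and between 1164 and 1679 lower, since fewer libraries overlap less. The difference between the hemispheres gave 1235 higher and 755 lower with the pool of mice as a random block, 1277 and 880 with array weights, 530 lower with the 12 libraries of 24 h, and between 481 and 789 higher and between 79 and 237 lower when 1 library was left out, the lowest without sham library 2. Apart from these, the cause of the changes was not tested.

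A replicate block left 0 genes regulated, and 190 (higher) and 221 (lower) had an unadjusted p under 0.05. The numbers do not pair tMCAO with sham libraries (correlation of deviations -0.20, -0.19 and -0.20), and the block changed no count of calls by over 1.5 times.

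Of the log2 fold changes of genes the rule named, 1448 values under the alternatives kept their direction and side of the threshold, 1 passed the threshold and 16 changed sign, all of them of genes close to 0 in the main fit except Aqp1 (-0.36). Kcnj8 (0.0509) was at -0.0056 with array weights and ranged from -0.26 to 0.29 when 1 library was left out. Over the same omissions Col3a1 (0.06) ranged from -0.13 to 0.40, Mal (0.08) from -0.10 to 0.27, Aqp1 from -0.76 to 0.40, Gpx1 (-0.0416) from -0.15 to 0.054, Rps10 (-0.0469) from -0.15 to 0.012 and Gp1bb (-0.0551) from -0.13 to 0.026. Without tMCAO library 2, Aqp1 was at 0.40 and Mal at -0.10. The median of 4 lists moved beyond the spread: junction genes to -0.07 without tMCAO library 2, basement membrane genes to -0.24 and cholesterol genes to 0.13 without tMCAO library 3, and fatty acid genes to 0.01 without sham library 3. All 105 panel differences under the alternatives stayed within the spread. That spread is the SD between libraries within the groups, with the omitted library included, so a library that stands apart widens it. Staying within it therefore does not mean that a panel difference is free of a single library. The erythrocyte and platelet differences given above fell when a library was left out.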
